A study of Mus musculus with 3 samples.

Results

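Fetal mouse intestinal epithelium had 32725 open chromatin regions on chromosomes 1 to 19 in the 3 libraries. Of these, 342 were strongly called in the control library and not called in or near the same place in either Hnf4 double knockout library. The regions come from merging the 3 deposited peak lists wherever peaks shared 1 bp or more. A region was kept when it lay on chromosomes 1 to 19, held a control peak with a score of 28 or more, held no peak of the double knockout (DKO), and had no peak of either DKO list within 1 kb. The regions were thus chosen by the control scores and by the calls of all libraries, and both are given below as a description, with no test. The 342 control-only regions were 7.54% of the 4538 strong control regions on these chromosomes.

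The study assayed epithelial cells of the small intestine at embryonic stage E16.5 by ATAC-seq, a method that uses a transposase to cut and tag accessible DNA. Cells were freed with trypsin and captured with magnetic beads against EpCAM, a surface protein of epithelial cells, and 20000 cells went into each library. The control group is 1 library of genotype Hnf4gCrispr/+, that is, 1 mutant copy of Hnf4g, with no Cre driver and no altered Hnf4a allele in its label. The DKO group is 2 libraries of genotype Shh-Cre; Hnf4af/f; Hnf4gCrispr/Crispr, so the Hnf4g mutation is present in every library, in 1 copy in the control and in both copies in the DKO. Shh-Cre acts in cells that express Shh or descend from such cells, which includes the gut epithelium. Whether embryos were pooled, and how completely Hnf4a was deleted, is not stated in the labels. The cell type and the targeted genes were not checked here, because the gene tables at hand are on another genome build than the peak lists, and no gene is named for any region.

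HNF4A and HNF4G are nuclear receptors that bind closely related DNA sequences and are both made in the intestinal epithelium. In enterocytes they bind many promoters and enhancers, among them those of genes for lipid uptake and for the brush border. An ATAC-seq peak marks DNA that is not covered by a nucleosome in enough cells to be called, as at an active enhancer or promoter. In a bulk library, fewer cells with an open site and less opening per cell cannot be told apart.

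The deposited lists hold 16977, 18268 and 26648 peaks for the control, DKO replicate 1 and DKO replicate 2, each a window of 601 bp. The number of reads is unknown. The lowest score in the lists was 10, 11 and 9. Scores of 28 or more were held by 27.1%, 40.1% and 33.4% of the peaks, so the control list was the shortest and had the smallest share of peaks past this score. With 1 control among 3 libraries, the smallest p-value an exact permutation test could reach is 0.333, and no test of the genotype was run. The spread between the DKO replicates stands in for replicate error. Intervals of shares are 95% Wilson intervals, and the 95% interval of a median is read from the ranked values. Both cover counting error over regions only.

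Most strong control regions were also called in the DKO. Of the 4538, 3901 (86.0%) held a peak of both DKO libraries, 209 held a peak of DKO replicate 2 but not of replicate 1, and 40 held a peak of DKO replicate 1 but not of replicate 2. The remaining 388 held no DKO peak, and 46 of these had one within 1 kb, in 37 cases from both DKO libraries. Leaving out DKO replicate 1 gave 366 control-only regions in place of 342, and leaving out DKO replicate 2 gave 538. The count thus rested more on replicate 2, which has the longer list, than on replicate 1.

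The same rule was applied with each DKO library in the place of the control, to see how often a single library holds strong regions of its own. DKO replicate 1 had 59 such regions of 7183 (0.821%, interval 0.637 to 1.06%). DKO replicate 2 had 398 of 8718 (4.57%, 4.15 to 5.02%). The control share of 7.54% (6.8 to 8.34%) was above both, and the DKO replicates also differed from each other, with intervals that did not overlap. When every library was cut to its 16977 top-scoring peaks, the shares were 9.52%, 1.5% and 5.1% for the control, DKO replicate 1 and DKO replicate 2. With score thresholds set to the same rank in each list (28, 33 and 31), the DKO shares were 0.636% and 3.11%. The order of the 3 libraries was the same in these settings. Each DKO library was set against the control and the other library of its own genotype, while the control was set against DKO libraries only. The control and DKO shares are thus not like for like, and their order does not measure an effect of the genotype. In the other direction, 639 of the 5806 regions that scored 28 or more in both DKO libraries (11.0%, 10.2 to 11.8%) had no control peak within 1 kb. These regions had to be strong in 2 libraries and to lack a peak in 1 list only, the shortest. This share was not computed at equal list lengths or ranks, so its size cannot be set against the 7.54%. Strong regions without a counterpart were thus present in both genotypes.

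The control-only regions sat low in the strong range. Their scores ran from 28 to 70 with a median of 32, against a median of 35 for the strong control regions called in both DKO libraries, whose scores reached 932. A score of 40 or more was held by 52 of the 342, and a score of 50 or more by 9. The threshold cut through a dense part of the list: 47 control-only regions scored exactly 28, and 54 further regions that met the same distance rule scored 27. The upper end of 70 rests on the distance rule, which left out chr1:24618396-24618996. That region holds the top score of the control list, 965, and no DKO peak, but has one 944 bp away. Just inside the threshold was chr1:97858630-97859230, with a score of 28 and no DKO peak for 166487 bp. Just outside it was chr9:78959052-78959652, with a score of 27 and no DKO peak for 522803 bp.

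The share of control-only regions fell with score. It was 11.5% (9.75 to 13.5%) of the 1133 strong control regions scoring 28 to 30, 8.66% of those scoring 31 to 35, 6.3% (5.11 to 7.74%) of those scoring 36 to 45, and 1.95% (1.18 to 3.19%) of the 770 scoring 46 or more. In DKO replicate 2 the share of regions of its own was 11.0% (9.57 to 12.6%) at scores of 28 to 30, an interval that overlaps that of the control. At scores of 36 to 45 it was 2.37% (1.85 to 3.05%), below the interval of the control. DKO replicate 1 stayed between 0.451% and 1.66% in the 4 score classes. The classes hold equal scores and not equal ranks, as a control score of 28 matched 33 in DKO replicate 1 and 31 in replicate 2 by rank. The classes were not compared at equal rank. The intervals count regions within single libraries, so setting them side by side is no test of the genotype. The interval of the control lay above that of DKO replicate 1 in each of the 4 classes, and above that of replicate 2 at scores of 36 to 45 only. At equal list lengths it lay above that of replicate 2 in 3 of the 4 classes: at 31 to 35 (9.57 to 13.0% against 6.71 to 9.08%), at 36 to 45 (6.07 to 8.9% against 1.99 to 3.23%) and at 46 or more (1.59 to 3.82% against 0.67 to 1.43%).

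**Figure D1:**
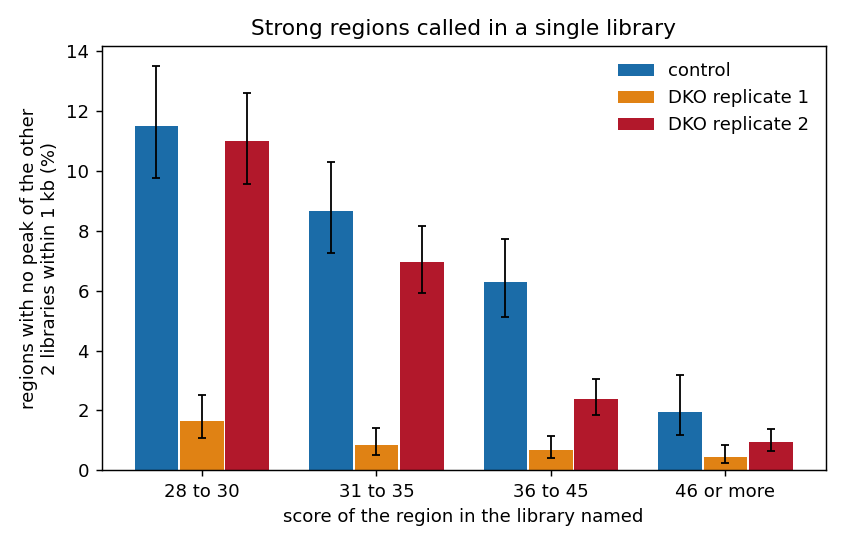
Share of strong regions with no peak of the other 2 libraries within 1 kb (vertical axis, percent), by score of the region in the library named (horizontal axis); bars are the 3 libraries and error bars are 95% Wilson intervals. The control and DKO replicate 2 start at 11.5% and 11.0% in the lowest score class, and at scores of 36 to 45 they differ, at 6.3% and 2.37%. Equal scores are not equal ranks in the 3 lists. Each DKO library is set against a library of its own genotype as well, and the control is not.

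The region with the highest score was chr6:103264359-103264959, with 70 (percentile rank 99.3 in the control list). It lay in a stretch of 584470 bp without a DKO peak, and the DKO peaks closest to it, which scored 32 in replicate 1 and 35 in replicate 2, overlapped each other at a place the control did not call. The second, chr6:121572380-121572980, scored 62 and lay in a DKO-free stretch of 834746 bp. The nearest other control peak was 376170 bp away, so this was an isolated open site in the control as well. Scores of 61 were held by chr1:168060092-168060692 and chr9:17479844-17480444. The first lay 6860 bp from another control peak, and the second lay 615883 bp from one.

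The next strongest varied as widely in their surroundings. The region chr2:124427557-124428157 scored 59 and had a region called in all 3 libraries 7190 bp away, within a DKO-free stretch of only 16224 bp. The region chr9:11436523-11437123 scored 54 in a stretch of 1037551 bp, and its nearest neighbour, 55505 bp away, was called in all 3 libraries. Scores of 53 were held by chr17:78673012-78673612 and by a region on chromosome 18. Around the chromosome 17 region the nearest DKO peaks, 11403 bp and 11459 bp away, belonged to a region called in both DKO libraries and not in the control. Accessible sites that stayed called in the DKO were thus near some of these regions and far from others.

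Chromosome 17 held 23 control-only regions, which were 10.2% of its 225 strong control regions. Whether it held more than its share of the highest-scoring ones was not tested. Among the 15 highest-scoring control-only regions, 4 lay on chromosome 17. Beside the one above these were chr17:36326863-36327463 with a score of 50, and chr17:13743475-13744075 and chr17:84535913-84536513 with 49 each. The region at 36326863 lay 40623 bp from a site called in all 3 libraries whose DKO peaks scored 124 and 136, among the highest scores next to any control-only region. The region at 13743475 lay 1328 bp and 1325 bp from peaks of DKO replicates 1 and 2 that scored 60 and 54 and that the control did not call. The region at 84535913 had another control-only region 17804 bp away.

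The last of the 15 strongest were chr14:106554233-106554833 (score 49), chr6:27703287-27703887 (48), chr10:122526469-122527069 (46) and chr13:10617635-10618235 (46). For 3 of them the DKO replicates differed in how close a peak came. At the chromosome 6 region the nearest peak was 381842 bp away in DKO replicate 1 and 5125 bp away in replicate 2. At the chromosome 13 region it was 257101 bp and 16055 bp, and at the chromosome 14 region 103816 bp and 37502 bp. The chromosome 10 region had peaks of both at 12627 bp and 12729 bp.

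**Figure D2:**
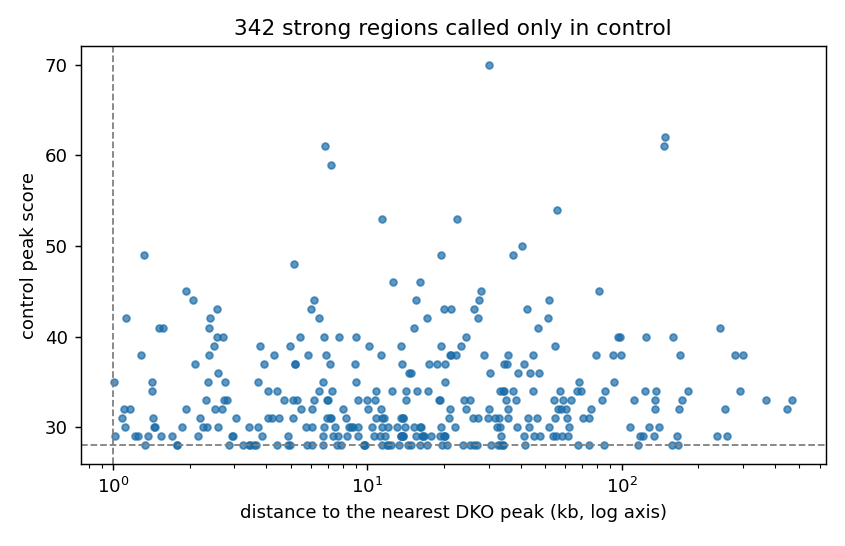
Control peak score (vertical axis) against the distance to the nearest DKO peak in kb (horizontal axis, log scale) for the 342 control-only regions, 1 point each; dashed lines mark the score of 28 and the distance of 1 kb that chose them. Most points lie below a score of 40, which 52 reach, and the 4 regions scoring 60 or more lie at 6807 bp, 30101 bp, 146654 bp and 148644 bp.

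The median distance to the nearest DKO peak of either library was 14.7 kb (interval of the median 12.5 to 17.8 kb), with a middle range of 5.81 to 39.0 kb. It was 25 kb to DKO replicate 1 and 15.4 kb to replicate 2, the longer list. A DKO peak lay 1 to 5 kb away for 76 regions (22.2%), 5 to 10 kb away for 56, 10 to 50 kb away for 140, 50 to 100 kb away for 37, and farther for 33 (9.65%). The closest allowed by the rule was chr4:11315237-11315837, 1012 bp from a DKO peak. The nearest region left out was chr12:92826556-92827156, 997 bp from one.

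The 5 most distant control-only regions had modest scores of 32 to 38. The farthest was chr3:71078177-71078777, with a score of 33 and DKO peaks 1043716 bp (replicate 1) and 465845 bp (replicate 2) away. The next control peak was farther still, at 1413963 bp. The others were chr4:16575328-16575928 (447446 bp), chr5:27747659-27748259 (369549 bp), chr1:18514445-18515045 (300312 bp) and chr17:59509101-59509701 (292731 bp). Of these, the chromosome 1 region had another control-only region only 932 bp away, so 2 control calls stood together in a stretch of 833343 bp without a DKO peak.

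At 189 of the 342 (55.3%, 50 to 60.4%) the nearest peaks of the DKO replicates overlapped each other and so marked 1 site. Over all 342, the nearest peak had a median score of 23 in DKO replicate 1 and 24 in replicate 2, where the medians of the whole lists were 24 and 22. The DKO sites next to control-only regions were thus of middling strength in their own lists.

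The nearest DKO region was one that the control had not called at 202 of the 342, as both DKO libraries had called it without the control at 81 (23.7%, 19.5 to 28.5%) and 1 of them had at 121 (35.4%). Beside the 3901 strong regions called in all 3 libraries, the nearest DKO region more than 1 kb away was of the first kind at 16.4% (15.3 to 17.6%) and of the second at 35.1%. The first share was thus higher beside control-only regions, and remained so against shared regions of scores 28 to 35 only, where it was 17.8% (16.1 to 19.5%), an interval that meets the other at its end. Of the 76 with a DKO region 1 to 5 kb away, 27 had one called in both DKO libraries and not in the control (35.5%, 25.7 to 46.7%). Beside strong shared regions with a DKO region in that range the share was 21.5% (17.2 to 26.6%), and 24.2% (18.2 to 31.5%) at scores of 28 to 35, and both intervals overlap that of the control-only regions. A DKO region 1 to 5 kb away was itself found for 7.51% of strong shared regions (6.72 to 8.38%), against 22.2% of control-only ones. Examples are chr17:13743475-13744075, described above, chr3:146069918-146070518 (score 45, 1942 bp away) and chr2:65078199-65078799 (score 42, 1128 bp away). At such places the control list and the DKO lists held calls at different sites less than 5 kb apart.

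Regions called in some libraries often had a peak of the remaining ones close by. A peak of the libraries that lacked the region lay 1 to 5 kb away for 22.2% of control-only regions (18.1 to 26.9%), for 17.4% of the 639 strong DKO-only regions (14.6 to 20.5%) and for 34.7% of the 398 regions of DKO replicate 2 alone (30.2 to 39.5%), where it could be a control peak or one of DKO replicate 1, which has the same genotype. Another control peak lay in that range for 11.1% of control-only regions (8.2 to 14.9%) and for 4.08% of strong shared regions (3.5 to 4.74%).

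Control-only regions tended to have others of their class nearby. Between 1 and 50 kb away, another region called only in the control, of any score, was found for 132 of the 342 (38.6%, 33.6 to 43.9%) and for 26.1% of the strong shared regions (24.7 to 27.5%). The share was 38.5% at scores of 28 to 35 and 38.8% at 36 or more. A region called in all 3 libraries was found for 47.7% (42.4 to 53.0%) and 55.0% (53.5 to 56.6%) respectively. A region called only in both DKO libraries was found for 32.7% (28 to 37.9%) and 29.4% (28 to 30.9%), intervals that overlap. The strong DKO-only regions gave the mirror image: 39.1% (35.4 to 43.0%) had another DKO-only region in that range and 28.5% (25.1 to 32.1%) a control-only one. For the strong regions of DKO replicate 2 alone, others of replicate 2 alone were found for 44.2% (39.4 to 49.1%), against 40.5% (39.3 to 41.7%) around its regions called in all 3 libraries, and these intervals overlap. The base rates of the classes differ, and the excesses were not compared with each other.

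**Figure D3:**
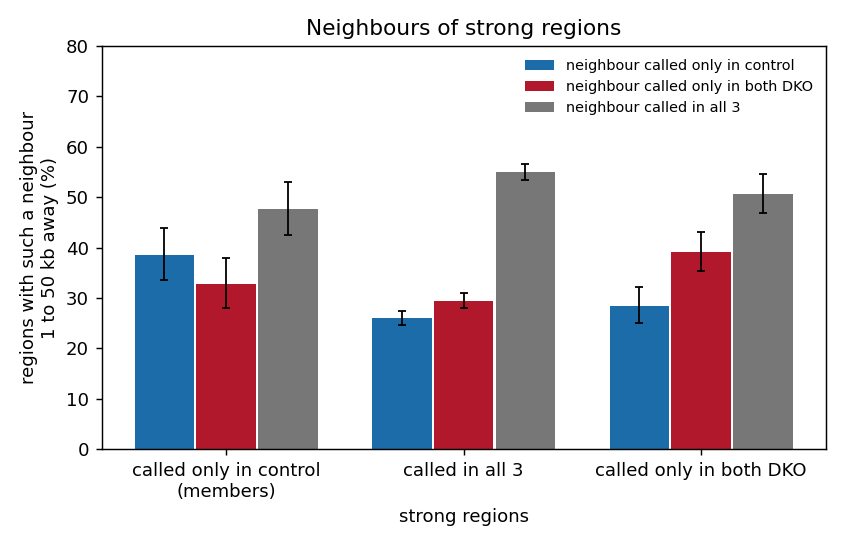
Share of strong regions with a neighbour of each class 1 to 50 kb away (vertical axis, percent; error bars are 95% Wilson intervals), for the 342 control-only regions, the 3901 called in all 3 libraries and the 639 called in both DKO libraries only. Neighbours of the same class are more frequent beside control-only (38.6%) and DKO-only regions (39.1%) than beside shared ones (26.1% and 29.4%).

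Few of the strong control-only regions lay near another one, and this was not set beside other kinds of region or the spacing their small number would give. At a chaining distance of 50 kb there were 9 pairs, 18 regions in all, and no larger group, and the median distance from one to the next was 1849.1 kb. The pair with the highest scores was on chromosome 6, chr6:137498576-137499176 and chr6:137513930-137514530, both scoring 40 and 14753 bp apart with no DKO call between. A second chromosome 6 pair, chr6:16805786-16806386 and chr6:16848205-16848805, scored 37 and 38 and had 1 DKO region between. On chromosome 4, chr4:144338920-144339520 and chr4:144372335-144372935 scored 33 and 40, with no DKO call between and none within 63194 bp of either. On chromosome 3, chr3:155410285-155410885 and chr3:155439734-155440334 scored 30 and 40 and had no DKO peak within 98120 bp. Of the 9 pairs, 3 had no DKO region between their members.

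Averaged over 100 kb, the local density of control peaks was close to that around shared sites, but its profile with distance differed. Within 100 kb of a control-only region, leaving out the nearest 1 kb, the mean number of other control peaks was 2.61 (SD 1.92 over regions), against 2.65 (SD 1.95) around strong shared regions. For DKO replicate 1 the means were 2.48 and 2.82, and for replicate 2 they were 3.52 and 3.73. DKO replicate 1 thus had 0.95 peaks per control peak near control-only regions and 1.07 near shared ones, and replicate 2 had 1.35 and 1.41. Within 500 kb these ratios were 0.984 and 1.09 for replicate 1, and 1.42 and 1.46 for replicate 2. Beside the strong DKO-only regions the ratios within 100 kb were 1.15 and 1.55. The lengths of the lists set the level of these ratios, and the shifts between kinds of region were not tested. By distance, control peaks per 100 kb were 1.55 at 1 to 25 kb from control-only regions and 1.24 from shared ones. At 50 to 100 kb they were 1.11 and 1.32. For DKO replicate 1 these densities were 1.48 and 1.33, then 1.13 and 1.41. For replicate 2 they were 2.18 and 1.78, then 1.56 and 1.85. From strong DKO-only regions, control peaks per 100 kb were 1.55 at 1 to 25 kb and 1.21 at 50 to 100 kb. For DKO replicate 1 they were 1.77 and 1.41, and for replicate 2 they were 2.46 and 1.85. A higher density close by was thus not particular to control-only regions. These profiles were not tested either.

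The scores of regions called in all 3 libraries near the control-only regions did not choose those regions. They come from the same 3 lists, however, and are not independent of the rule. Scores were turned into percentile ranks at equal list lengths. In the 45 shared regions up to 10 kb from a control-only region, the control had a mean rank of 71.0, DKO replicate 1 of 62.5 and DKO replicate 2 of 69.2. The control minus the DKO mean was 5.18 points (SD 24.96 over regions), and 27 of the 45 ranked higher in the control. The DKO replicates differed from each other by more, 6.74 points (SD 18.42), with replicate 2 higher. At 10 to 50 kb the control minus the DKO mean was 1.53 points in 176 regions, and beyond 200 kb it was -1.02 points in 8263. Up to 10 kb the control was 8.55 points above DKO replicate 1 and 1.81 above replicate 2, so replicate 1 carried most of the difference. The difference from the DKO mean was smaller than that between the DKO replicates, and the difference from replicate 1 alone was larger. A difference from a mean of 2 libraries and one between 2 libraries are unlike contrasts. Beyond 200 kb the DKO replicates differed by 2.97 points, with replicate 1 higher.

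**Figure D4:**
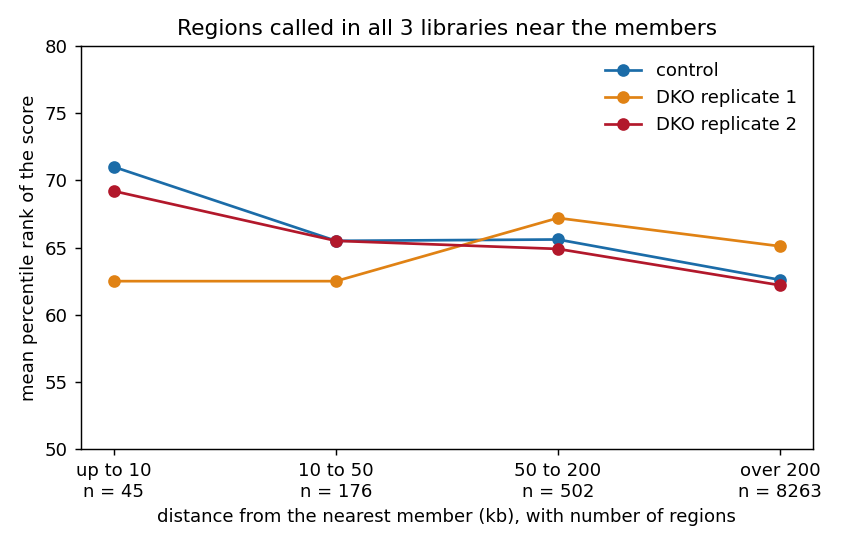
Mean percentile rank of the score (vertical axis, from 50 to 80) in each library for regions called in all 3 libraries, by distance from the nearest control-only region (horizontal axis, kb, with the number of regions). Up to 10 kb the control (71.0) and DKO replicate 2 (69.2) lie close together and DKO replicate 1 (62.5) lies lower; beyond 200 kb DKO replicate 1 is the highest.

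All 19 chromosomes held control-only regions, from 5 on chromosome 11 to 34 on chromosome 1. As a share of strong control regions, chromosome 3 was highest with 32 of 267 (12.0%, 8.62 to 16.4%). Chromosomes 17, 13 and 1 followed with 10.2%, 10.0% and 10.0%. Chromosome 11 was lowest with 5 of 251 (1.99%, 0.854 to 4.58%), and its regions scored between 29 and 34. These are the extremes of 19 values. The interval of chromosome 11 lay below the 7.54% of all 19 and that of chromosome 3 above it. In the other direction chromosome 11 was not low, with 36 of 371 strong DKO regions lacking a control peak (9.7%, 7.09 to 13.1%) against 11.0% over all 19, and in DKO replicate 2 alone it had 3.13% (1.94 to 5.03%) against 4.57%. For chromosome 3 these shares were 12.3% and 6.15%. On the X chromosome, outside the rule, 3 of 56 strong control regions would have met it.

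**Figure D5:**
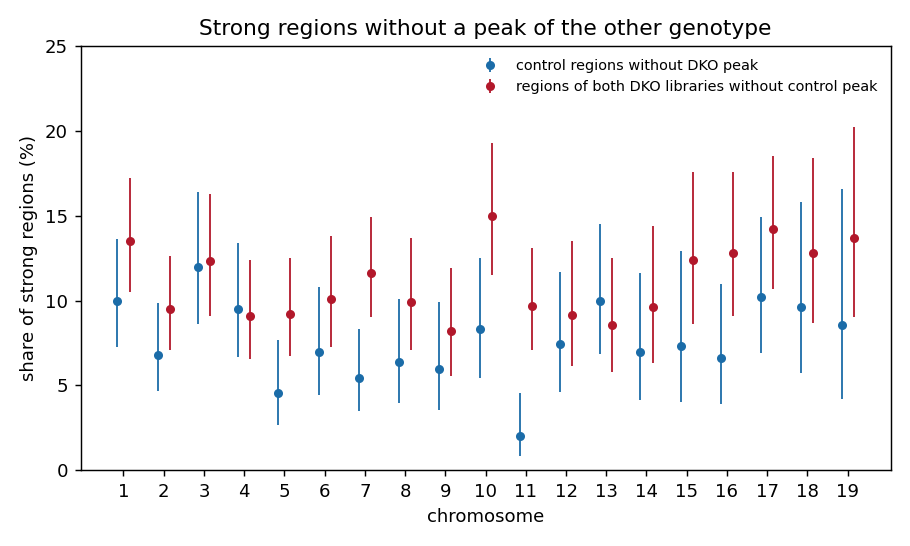
Share of strong regions without a peak of the other genotype within 1 kb (vertical axis, percent) for chromosomes 1 to 19 (horizontal axis), with 95% Wilson intervals; blue points are control regions and red points are regions of both DKO libraries. For control regions chromosome 11 is lowest (1.99%) and chromosome 3 highest (12.0%), while the DKO share on chromosome 11 is 9.7%. The blue and red shares follow unlike rules, so their levels cannot be set against each other.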

How the data were processed

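ATAC-seq libraries of 75 bp single-end reads were made from 1 control and 2 DKO samples, grouped by their titles. Per the submitters' processing notes, FastQC 0.11.3, Bowtie2 2.2.6, deepTools 2.4.2 and MACS 1.4.1 were used with the build mm9; thresholds, treatment of duplicates and any read shift are not given in the sources used here. The authors deposited 1 peak list per library, unpooled, with a whole-number score per peak whose meaning is not stated. Fixed windows with such scores have the form of MACS summit lists, where the score is a pileup height and rises with depth. Depth is unknown, so a missing peak means only that none was called. Coordinates are mm9 as deposited, with 1-based starts. The RefSeq tables at hand are on GRCm38.p6: of the 3091 regions scoring 28 or more in all 3 libraries, on chromosomes that table covers, 8.09% lay within 1 kb of one of its promoters, and 7.51% did after a shift of 50 kb, so those tables were not used for position. Promoter shares, nearest genes, motifs, base content and gene lists were not analysed here.

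Lists were merged, filtered and compared with Python 3.11.15, pandas 2.3.3, numpy 2.4.6 and scipy 1.17.1, and the rule was tested on simulated data. Distances are bases between edges. Regions described singly are the 15 with the highest scores, the 5 farthest from a DKO peak, pairs chained at 50 kb and those at the thresholds; pairs of equal size were ordered by summed score, and a 4th pair and the examples beside DKO-only sites were picked after their values were seen. Coordinates on chromosome 18 are not given. Members, rule and lists were chosen with earlier results of these data known.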

Additional observations from a re-analysis of the deposited data

How the results depend on the processing

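The count of 342 control-only regions was 1087 with a score of 21 or more, 108 with 35 or more and 210 with no DKO peak within 10 kb. It was 388 without a distance rule, 432 at equal list lengths and 345 with all chromosomes. The share of 7.54% became 12.6% and 4.69% at the scores of 21 and 35, 4.63% at 10 kb and 9.52% at equal list lengths. Leaving out each DKO replicate gave 366 to 538 regions, shares of 8.07 to 11.9%, and a median distance to the nearest DKO peak of 15 to 22.1 kb, the higher values without replicate 2. The share with another control-only region within 50 kb, 5.26%, was 9.36% within 100 kb and 14.8% at a score of 21 or more. Thresholds changed these values by construction, since they set which regions are counted.

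The comparison at equal list lengths for the DKO libraries, score thresholds of equal rank and shared regions of scores 28 to 35 were chosen after the data had been seen. A 50% overlap could not change the count, because any overlapping peak is also within 1 kb. The alternatives for promoters, start sites, motifs, base content and gene lists were not run, as they need annotation of the lists' build. No paired analysis was possible with 1 control and 2 DKO libraries, and the label of the control gives no replicate number. The unknown depth limits every control-only call: a region that fell short of the calling threshold in the DKO could not be told from a closed one.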
